A study of Rattus norvegicus with 6 samples.

Results

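The genes described here are 34 genes of the N6-methyladenosine (m6A) and microRNA pathways, measured by RNA sequencing in BRL-3A, an established rat cell line derived from liver. They were chosen by gene symbol: 18 genes that write, erase or read m6A, and 16 genes that process microRNAs or carry out silencing by them. Each of the 34 symbols matched exactly 1 row of a table of 30957 rat genes, and all 34 passed the filter on low counts. The groups were si-hnrnpa2b1 (3 libraries), named for an siRNA against Hnrnpa2b1, and NC (3 libraries), which the labels do not spell out. The labels give the same protocol for all 6 libraries, an siRNA transfection of 48 h with a lipid reagent, and do not name what the NC cells received. Both groups carry the same remaining labels: strain Sprague-Dawley, liver tissue and a disease state of high blood triglycerides. The strain and disease state are given only as labelled and were not checked for these cultured cells. Nothing in the labels says whether replicates were separate cultures, and a p-value here measures the spread between samples that may differ only technically.

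N6-methyladenosine is the most common internal modification of messenger RNA. A nuclear writer complex built on METTL3 and METTL14 adds it, the demethylases FTO and ALKBH5 can remove it, and reader proteins bind it and change how a transcript is processed, translated or degraded. MicroRNAs are cut from primary transcripts by DROSHA and DGCR8 in the nucleus and by DICER1 in the cytoplasm, and then guide an Argonaute protein, with a TNRC6 partner, to messenger RNAs that are silenced. hnRNPA2B1, the targeted RNA-binding protein, joins both pathways: in human cells it has been described as a nuclear reader of m6A marks on primary microRNAs that interacts with DGCR8. The comparison shows at which level the genes of these pathways were expressed, and whether their mRNA differed, when Hnrnpa2b1 mRNA was lowered.

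Totals lay between 13374412 and 15224108 counts per library. Values per library are CPM (counts brought to a common library total and corrected by TMM, the trimmed mean of M-values), and levels of different genes are compared as FPKM, the unit of fragments that is also divided by gene length. Fold changes are si-hnrnpa2b1 over NC on the log2 scale with their SE, from the quasi-likelihood test of edgeR, adjusted after Benjamini and Hochberg over 12261 tested genes, and a gene is said to have risen or fallen where the adjusted p was below 0.05. The error after ± is the SD over 3 libraries for levels and shares and the SE for fold changes. The targeted Hnrnpa2b1 (chromosome 4, positions 81237496 to 81241282 of Rnor_6.0) had 662, 585 and 574 CPM in si-hnrnpa2b1 libraries, against 954, 1065 and 1025 CPM in NC libraries. It fell, at -0.74 ± 0.06 in log2 (edgeR adjusted p = 2.3e-06). Of 7 hepatocyte markers, 5 (Alb, Ttr, Serpina1, Cps1 and Hnf4a) had 0 counts in all 6 libraries, and the 7 summed to 0.597 to 1.29 CPM in si-hnrnpa2b1 and 0.227 to 0.565 CPM in NC libraries, so the labelled liver tissue was not matched by hepatocyte counts. Some broadly expressed genes, such as Hsp90aa1, Ncbp2 and Zswim8, are also listed at 0 in all 6 libraries, so a 0 in this table need not mean an absent transcript. The 6 stellate cell and fibroblast markers, led by Col1a1, were all counted and summed to 15043 to 16000 CPM in si-hnrnpa2b1 and 15148 to 15539 CPM in NC libraries. Among them Acta2 had 164 to 178 CPM in si-hnrnpa2b1 and 135 to 146 CPM in NC libraries, without overlap. Vim had 1398 to 1479 CPM in si-hnrnpa2b1 and 1287 to 1350 CPM in NC libraries, also without overlap. The markers Col1a1, Col3a1, Pdgfrb and Dcn overlapped between groups. Groups without overlap were found for 23.4% of all tested genes. The 5 cholangiocyte markers, among which Epcam was at 0, summed to 5.29 to 5.70 CPM in si-hnrnpa2b1 and 6.66 to 7.91 CPM in NC libraries. The 4 leukocyte markers summed to 1.22 to 2.59 CPM in si-hnrnpa2b1 and 1.27 to 1.97 CPM in NC libraries, and 3 endothelial markers to 45.5 to 48.0 CPM in si-hnrnpa2b1 and 40.0 to 45.7 CPM in NC libraries. The part of these marker levels in the results was not tested.

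Of the 34 genes, 1 rose after si-hnrnpa2b1, the writer subunit Rbm15b, and 0 fell, where 5.30% of all tested genes changed in either direction, 2.36% rising and 2.94% falling. DESeq2 also called 1, Rbm15b, of the 32 members to which it gave an adjusted p, against 5.80% of all genes with one. An unadjusted p below 0.05 was found for 6 members, against 18.3% of all tested genes, and the 2 groups did not overlap in 9 members, against 23.4% of all tested genes. These shares of the members lie near those of all genes. The median log2 fold change of the 34 genes was -0.04, beside -0.0015 over all tested genes, and 12 lay above 0 and 22 below. Differences were small: the median size was 0.07 on the log2 scale for the members and 0.10 for all tested genes. For 26 of the 34 members (76.5%) the whole 95% interval lay within 1.3-fold in either direction, against 60.00% of all tested genes. The lists of other pathway genes described below had larger shares. They were 81.0% for m6A and RNA methylation, 86.4% for microRNA regulation and 89.7% for deadenylation and decapping. Neither these shares nor the median sizes were adjusted for the level of the genes. For 5 members, Fto, Lin28b, Ago3, Ago4 and Tnrc6b, the interval reached past 1.5-fold, so the data do not settle whether these genes differed by that much. In bulk RNA, fewer cells of a type and less RNA per cell cannot be told apart.

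**Figure D1:**
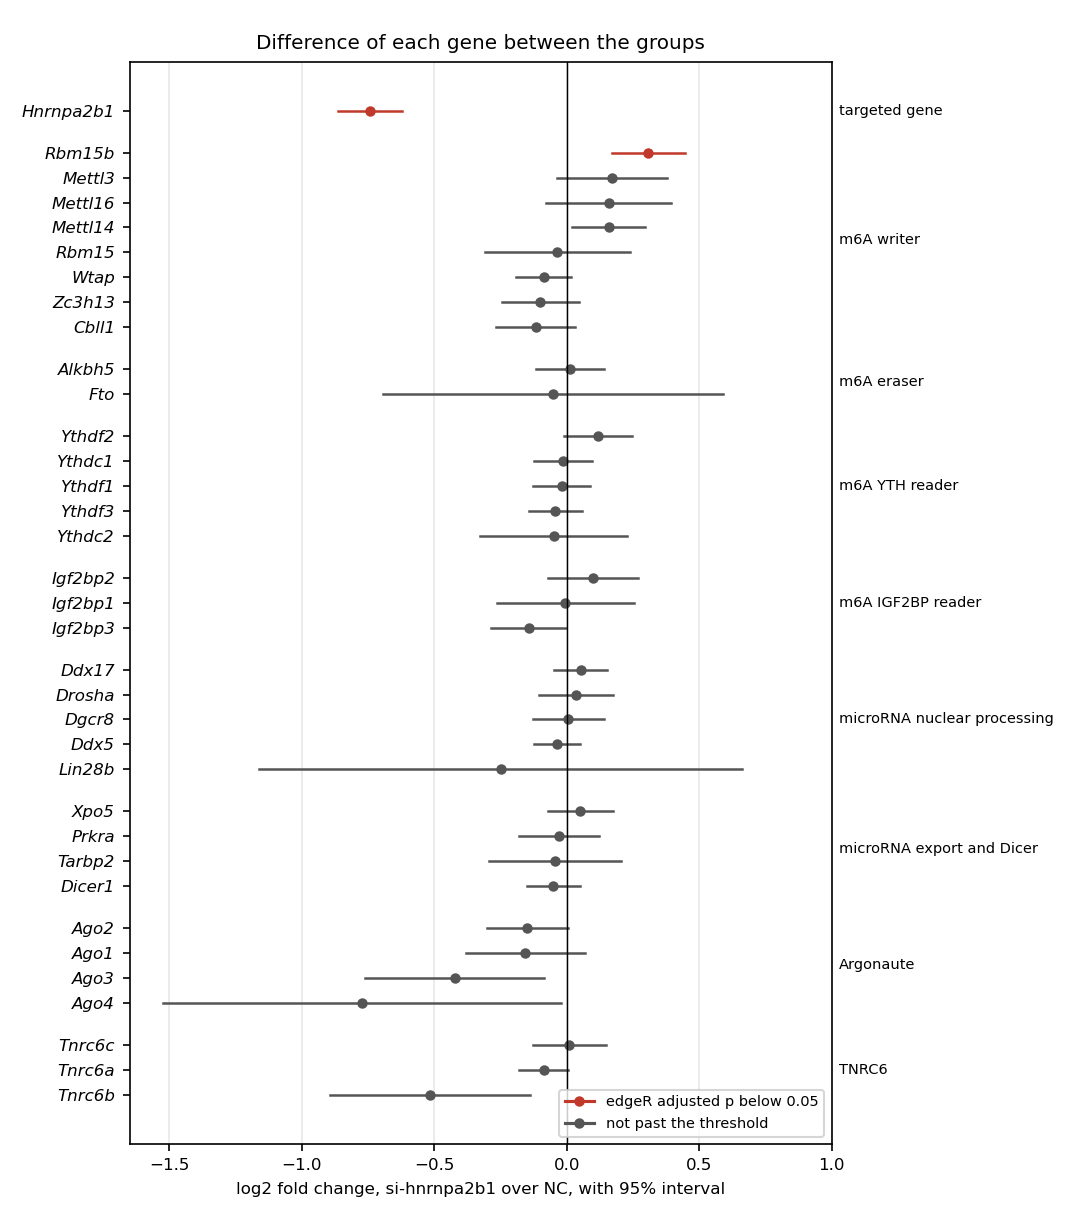
Log2 fold change, si-hnrnpa2b1 over NC, of Hnrnpa2b1 and the 34 genes grouped by role, with points for the edgeR estimate, lines for the 95% interval and red for an adjusted p below 0.05. Hnrnpa2b1 lies at -0.74 and Rbm15b at 0.31; the widest intervals are those of Lin28b, Ago4, Fto and Tnrc6b.

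The m6A writers held the gene that rose. Of 8 writers, 1 rose, 0 fell and 7 did not pass, and their median was 0.06. Rbm15b encodes an RNA-binding adaptor that brings the writer complex to transcripts (ENSRNOG00000014161, chromosome 8, 115618555 to 115621394 of Rnor_6.0). It had 54.8, 55.1 and 54.1 CPM in si-hnrnpa2b1 libraries, against 42.01, 46.5 and 43.98 CPM in NC libraries, which is 826, 812 and 798 counts in si-hnrnpa2b1 libraries, against 595, 615 and 653 counts in NC libraries. All 3 si-hnrnpa2b1 values lay above all 3 NC values, and the si-hnrnpa2b1 values lay within 1 CPM of one another, whereas the NC values were more spread. The level was 20.5 ± 0.200 FPKM in si-hnrnpa2b1 and 16.6 ± 0.687 FPKM in NC libraries (SD, n = 3 each). Rbm15b rose by 23.8% (95% interval 12.5% to 36.3%), which is 0.31 ± 0.06 in log2 (edgeR adjusted p = 0.010). By DESeq2 its adjusted p was 0.0080. The call was lost without NC replicate 1, the library with the lowest value (log2 0.27, edgeR adjusted p = 0.054), and by limma on log2(FPKM + 1) without a filter (0.29, adjusted p = 0.056). Over all alternatives its adjusted p lay between 0.0071 and 0.14.

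Rbm15, its paralog with the same adaptor role, had 11.2, 14.7 and 11.7 CPM in si-hnrnpa2b1 libraries, against 14.1, 12.5 and 11.9 CPM in NC libraries, and the groups overlapped. Its log2 fold change was -0.03 ± 0.13 (edgeR adjusted p = 0.93), with a 95% interval of -0.31 to 0.24. Rbm15b held 84.4% ± 1.90 of the summed FPKM of the pair in si-hnrnpa2b1 libraries and 81.0% ± 1.98 in NC libraries, with no overlap between groups. The pair summed to 24.3 ± 0.790 FPKM in si-hnrnpa2b1 and 20.5 ± 0.459 FPKM in NC libraries. The difference in response between the paralogs was not tested.

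The promoter windows of this pair are printed because 1 of the paralogs rose and the other did not pass. They are the 250 bases before the annotated start, from RefSeq with build GRCr8, 5′ to 3′ on the gene's strand (minus for both), at chr8:116425375-116425624 for Rbm15b and chr2:197642698-197642947 for Rbm15. Capitals mark CACGTG, a palindromic E-box that reads the same on both strands and was searched for after the Rbm15b sequence had been seen.
Rbm15b: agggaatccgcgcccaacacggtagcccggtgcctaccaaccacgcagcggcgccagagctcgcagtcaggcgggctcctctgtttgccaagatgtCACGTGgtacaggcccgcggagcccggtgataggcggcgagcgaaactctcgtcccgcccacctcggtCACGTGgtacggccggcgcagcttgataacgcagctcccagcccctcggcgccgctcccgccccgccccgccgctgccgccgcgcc
Rbm15: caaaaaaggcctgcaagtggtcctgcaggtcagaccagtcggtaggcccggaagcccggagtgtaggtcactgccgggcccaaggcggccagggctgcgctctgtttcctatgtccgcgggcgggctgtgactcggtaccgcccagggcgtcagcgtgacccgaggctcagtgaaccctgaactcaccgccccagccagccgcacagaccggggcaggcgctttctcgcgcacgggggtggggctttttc
The Rbm15b window holds CACGTG at 2 places, with first bases 154 and 86 bases before the start, and the Rbm15 window at 0. Of 33469 rat promoter windows of this length, 5.59% hold CACGTG and 144 (0.43%) hold it at least 2 times. Because the motif was picked from the Rbm15b window, these shares do not measure how unusual its 2 matches are. Of the 34 members 27 had a window, and 4 of these hold the motif: Rbm15b 2 times, and Dgcr8, Igf2bp3 and Ythdf1 at 1 place each. A match describes the letters of the window and is not evidence of a bound factor.

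The catalytic core of the writer complex did not pass the test. Mettl3, the methyltransferase subunit, had 30.7, 24.4 and 30.3 CPM in si-hnrnpa2b1 libraries, against 24.6, 24.4 and 26.7 CPM in NC libraries, with overlapping groups (log2 0.17 ± 0.10, edgeR adjusted p = 0.39). Mettl14, the RNA-binding partner that completes the active complex, had 71.1, 73.3 and 73.00 CPM in si-hnrnpa2b1 libraries, against 59.8, 69.2 and 65.9 CPM in NC libraries. Its groups did not overlap, but the difference missed the threshold (log2 0.16 ± 0.06, edgeR adjusted p = 0.19; unadjusted p = 0.027). Mettl16, a separate methyltransferase known from human cells to act on U6 RNA and the MAT2A transcript, had 17.1, 17.1 and 16.2 CPM in si-hnrnpa2b1 libraries, against 14.3, 17.2 and 13.8 CPM in NC libraries, also overlapping (log2 0.16 ± 0.11, edgeR adjusted p = 0.49).

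The log2 fold changes of the scaffold subunits lay slightly below 0 and did not pass. Wtap, which holds the core in nuclear speckles and had the highest FPKM among the writers, had 129.5, 136 and 132 CPM in si-hnrnpa2b1 libraries, against 137, 143 and 144 CPM in NC libraries. The Wtap groups did not overlap, at a difference of -0.09 ± 0.05 in log2 (edgeR adjusted p = 0.38). Zc3h13, which anchors the complex in the nucleus, had 171, 151 and 155 CPM in si-hnrnpa2b1 libraries, against 156, 190.3 and 166 CPM in NC libraries, with overlap (log2 -0.10 ± 0.07, edgeR adjusted p = 0.48). Cbll1, the ubiquitin ligase Hakai that is bound to the complex, had 49.8, 44.6 and 45.2 CPM in si-hnrnpa2b1 libraries, against 48.5, 53.7 and 49.3 CPM in NC libraries, with overlap (log2 -0.12 ± 0.07, edgeR adjusted p = 0.41).

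Neither eraser passed the test, and the spread within groups was very different for the 2 genes. Alkbh5, a nuclear m6A demethylase, had 65.1, 66.01 and 63.2 CPM in si-hnrnpa2b1 libraries, against 66.4, 65.2 and 61.1 CPM in NC libraries (log2 0.01 ± 0.06, edgeR adjusted p = 0.95). All 6 Alkbh5 values lay close together. Fto, a demethylase that acts on m6A and on the modified base next to the cap (chromosome 19, 16772744 to 17115113 of Rnor_6.0), had 125, 110.2 and 46.5 CPM in si-hnrnpa2b1 libraries, against 47.9, 127 and 117 CPM in NC libraries. In counts these were 1876, 1625 and 686 counts in si-hnrnpa2b1 libraries, against 679, 1682 and 1734 counts in NC libraries. Fto thus stood at 2 separate levels that did not follow the groups: si-hnrnpa2b1 replicate 3 and NC replicate 1 were low, and the other 4 libraries were high. Its log2 fold change of -0.05 ± 0.30 (edgeR adjusted p = 0.96) had a 95% interval of -0.69 to 0.59, which holds a difference of 1.5-fold in either direction. Leaving out 1 library at a time gave values between -0.38 and 0.27. Without both libraries low for Fto, an alternative added after the data were seen, it was -0.06.

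The YTH readers, which bind m6A through a shared domain, held 0 of 5 genes past the threshold. Ythdf1, described as a promoter of translation, had 133, 124 and 127 CPM in si-hnrnpa2b1 libraries, against 133, 131 and 126 CPM in NC libraries. Ythdf3, a cytoplasmic relative, had 163, 168 and 164 CPM in si-hnrnpa2b1 libraries, against 168, 176 and 165 CPM in NC libraries. Ythdf1 and Ythdf3 overlapped between groups (log2 -0.02 ± 0.05, edgeR adjusted p = 0.90 for Ythdf1; log2 -0.04 ± 0.05, edgeR adjusted p = 0.70 for Ythdf3). Ythdf2, which brings marked transcripts to the CCR4-NOT deadenylase, had 68.1, 63.2 and 67.6 CPM in si-hnrnpa2b1 libraries, against 62.1, 60.1 and 61.02 CPM in NC libraries. The Ythdf2 groups did not overlap and the difference missed the threshold (log2 0.12 ± 0.06, edgeR adjusted p = 0.31; unadjusted p = 0.066).

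Among the 3 cytoplasmic paralogs, Ythdf2 held 28.1% ± 0.728 of the summed FPKM in si-hnrnpa2b1 libraries and 26.04% ± 0.642 in NC libraries, without overlap. Ythdf1 held 36.8% ± 0.693 in si-hnrnpa2b1 and 37.6% ± 0.432 in NC libraries, and Ythdf3 35.1% ± 1.14 in si-hnrnpa2b1 and 36.4% ± 0.842 in NC libraries. The sum of the family was nearly the same in both groups, 113 ± 1.41 FPKM in si-hnrnpa2b1 and 112 ± 1.80 FPKM in NC libraries. By share of counts in place of FPKM, Ythdf2 held 18.5% in si-hnrnpa2b1 and 16.9% in NC libraries, and Ythdf3, at 45.9% in si-hnrnpa2b1 and 47.0% in NC libraries, stood ahead of Ythdf1. Shares within families are given as descriptions and were not tested.

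Ythdc1, the nuclear reader of the family, had 112, 114 and 109 CPM in si-hnrnpa2b1 libraries, against 115, 115 and 108 CPM in NC libraries, with near-complete overlap (log2 -0.01 ± 0.05, edgeR adjusted p = 0.93). Ythdc2, an RNA helicase best known from mouse germ cells, had 13.2, 16.01 and 12.5 CPM in si-hnrnpa2b1 libraries, against 13.98, 16.6 and 12.7 CPM in NC libraries (log2 -0.05 ± 0.13, edgeR adjusted p = 0.90). The Ythdc2 model of the table lies on chromosome 1, whereas RefSeq places that symbol on another chromosome, so its identity is uncertain; the other 33 members lie on the same chromosome in both.

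The IGF2BP readers, which stabilise marked transcripts and are oncofetal proteins in many tissues, held 0 of 3 genes past the threshold. All 3 were expressed. Igf2bp3 had 56.6, 54.8 and 55.02 CPM in si-hnrnpa2b1 libraries, against 58.5, 66.7 and 58.8 CPM in NC libraries. Its si-hnrnpa2b1 values all lay below the NC values, and the difference missed the threshold (log2 -0.14 ± 0.07, edgeR adjusted p = 0.26; unadjusted p = 0.047). Igf2bp2 had 35.8, 33.2 and 36.97 CPM in si-hnrnpa2b1 libraries, against 30.3, 34.7 and 34.01 CPM in NC libraries (log2 0.10 ± 0.08, edgeR adjusted p = 0.57), and Igf2bp1, the least abundant of the family, had 12.01, 14.04 and 12.8 CPM in si-hnrnpa2b1 libraries, against 13.8, 13.9 and 11.2 CPM in NC libraries (log2 -0.01 ± 0.12, edgeR adjusted p = 0.99). Both of these overlapped between groups. Igf2bp3 held 58.7% ± 0.866 of the family's summed FPKM in si-hnrnpa2b1 libraries and 62.0% ± 0.594 in NC libraries, without overlap. Igf2bp2 held 25.4% ± 1.21 in si-hnrnpa2b1 and 22.7% ± 1.44 in NC libraries, and Igf2bp1 15.9% ± 1.37 in si-hnrnpa2b1 and 15.3% ± 1.57 in NC libraries.

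**Figure D2:**
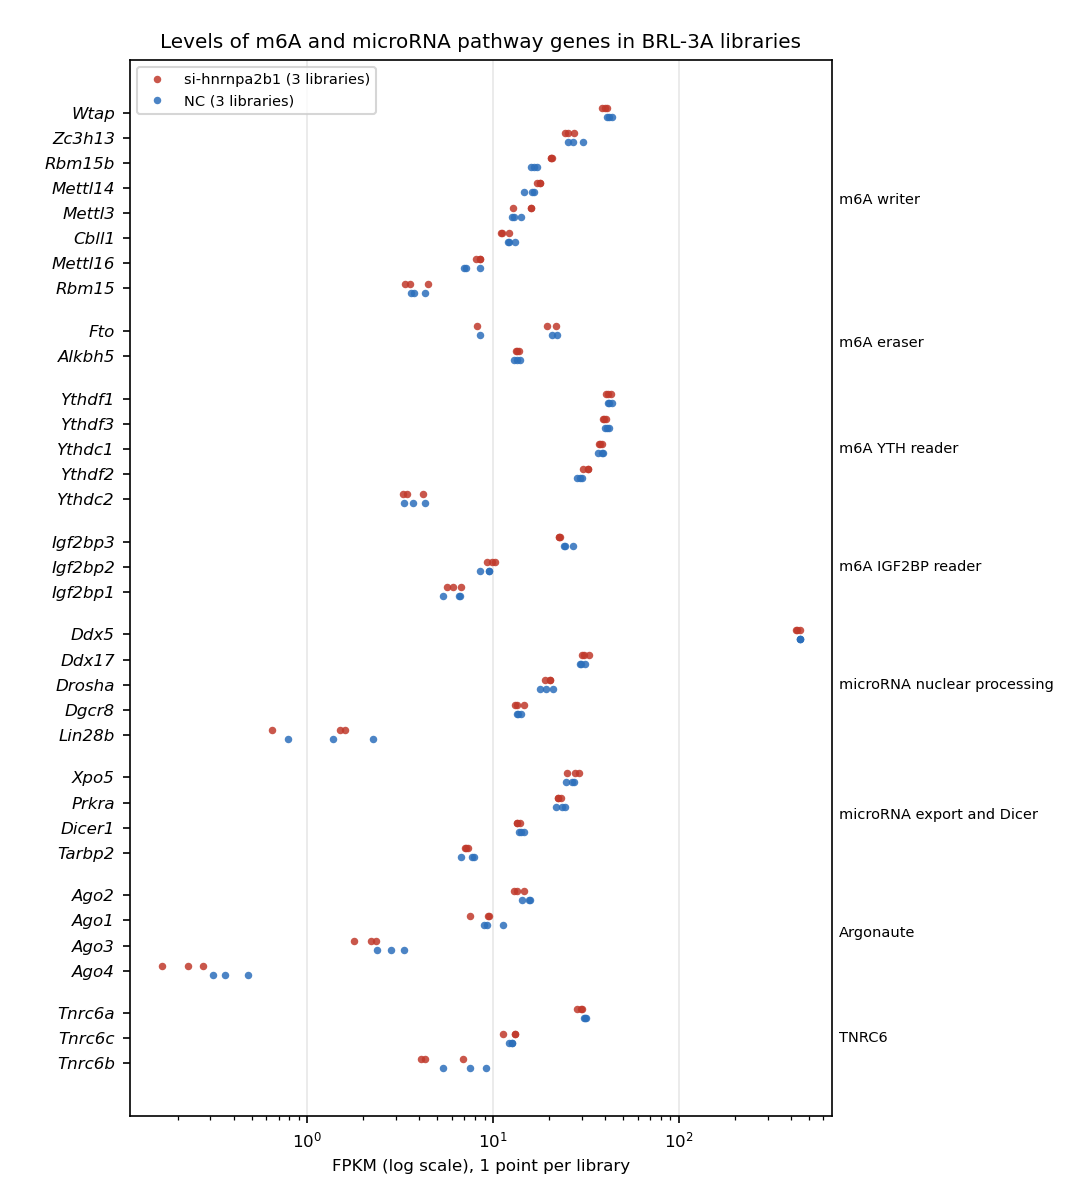
FPKM of each of the 34 genes on a log axis, 1 point per library, with si-hnrnpa2b1 in red above NC in blue and genes grouped by role. Ddx5 stands alone above 400 FPKM, Ago4 and Lin28b lie lowest, and the points of Fto fall at 2 levels in both groups.

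Nuclear processing of microRNAs held 0 of 5 genes past the threshold. Drosha, the nuclease that cuts primary microRNAs, had 91.5, 89.96 and 84.5 CPM in si-hnrnpa2b1 libraries, against 79.8, 94.8 and 85.2 CPM in NC libraries, with overlap (log2 0.03 ± 0.07, edgeR adjusted p = 0.85). Dgcr8, its RNA-binding partner and the protein with which hnRNPA2B1 has been described to interact, had 59.9, 66.4 and 61.1 CPM in si-hnrnpa2b1 libraries, against 63.7, 61.4 and 61.6 CPM in NC libraries. The Dgcr8 means were nearly equal (log2 0.01 ± 0.06, edgeR adjusted p = 0.98), and its 95% interval was -0.13 to 0.14.

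The helicases Ddx5 and Ddx17 assist the DROSHA complex and also act in splicing and transcription. Ddx5 was the most abundant of the 34 genes in both groups, with 425, 447 and 431 FPKM in si-hnrnpa2b1 libraries, against 447, 447 and 446 FPKM in NC libraries (log2 -0.04 ± 0.04, edgeR adjusted p = 0.71). Its model overlaps that of Cep95, which held 2643 counts over all libraries against 90938 for Ddx5. Ddx17 had 246, 238 and 261 CPM in si-hnrnpa2b1 libraries, against 234, 237 and 248 CPM in NC libraries, with overlap (log2 0.05 ± 0.05, edgeR adjusted p = 0.62). Lin28b, which blocks maturation of the let-7 microRNAs, was low, with 8, 18 and 19 counts in si-hnrnpa2b1 libraries, against 9, 15 and 27 counts in NC libraries. The counts of Lin28b were spread widely within both groups (log2 -0.25 ± 0.43, edgeR adjusted p = 0.83), and its 95% interval of -1.16 to 0.66 holds differences of 1.5-fold in either direction.

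Of the microRNAs themselves the table held 1 row named as a microRNA gene, Mir199a2, named after its values were seen because no other row of that kind was present. It had 3, 6 and 6 counts in si-hnrnpa2b1 libraries, against 1, 2 and 3 counts in NC libraries, too few to pass the filter, and it was not tested. Its 2 mature arms are printed from RefSeq (build GRCr8, plus strand, chr13:77116255-77116277 and chr13:77116294-77116315), with the seed, bases 2 to 8, in capitals.
rno-miR-199a-5p: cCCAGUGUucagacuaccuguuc
rno-miR-199a-3p: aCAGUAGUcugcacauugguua
The arms differ in their seeds. These are counts of the Mir199a2 gene row and do not measure the mature arms.

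Export and the second cut held 0 of 4 genes past the threshold. Xpo5, which exports precursor microRNAs from the nucleus, had 124, 142 and 135 CPM in si-hnrnpa2b1 libraries, against 134, 124 and 130.3 CPM in NC libraries, with overlap (log2 0.05 ± 0.06, edgeR adjusted p = 0.71). Dicer1, the nuclease that makes the mature duplex, had 134, 133 and 137 CPM in si-hnrnpa2b1 libraries, against 137, 138 and 143 CPM in NC libraries. The Dicer1 groups did not overlap, but the highest si-hnrnpa2b1 value lay less than 1 CPM below the lowest NC value. Dicer1 differed by -0.05 ± 0.05 in log2 (edgeR adjusted p = 0.64). Its double-stranded RNA-binding partner Tarbp2 had 10.6, 10.3 and 10.8 CPM in si-hnrnpa2b1 libraries, against 11.5, 9.99 and 11.2 CPM in NC libraries (log2 -0.04 ± 0.12, edgeR adjusted p = 0.90), and the other partner Prkra had 35.5, 35.01 and 36.4 CPM in si-hnrnpa2b1 libraries, against 37.9, 34.6 and 36.6 CPM in NC libraries (log2 -0.03 ± 0.07, edgeR adjusted p = 0.89). Both partners overlapped between groups.

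The log2 fold changes of the 4 Argonaute genes, whose proteins hold the microRNA, all lay below 0, with a median of -0.29, and 0 of 4 passed the test. Ago2, the Argonaute that can cut its target, had 40.7, 45.7 and 41.8 CPM in si-hnrnpa2b1 libraries, against 48.4, 49.5 and 44.3 CPM in NC libraries. A single NC value of Ago2 lay within the range of the si-hnrnpa2b1 values (log2 -0.15 ± 0.07, edgeR adjusted p = 0.29; unadjusted p = 0.057). Ago1 had 21.97, 27.4 and 27.1 CPM in si-hnrnpa2b1 libraries, against 26.7, 26.2 and 32.3 CPM in NC libraries, with overlap (log2 -0.16 ± 0.11, edgeR adjusted p = 0.48).

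Ago3 had 5.64, 7.33 and 6.92 CPM in si-hnrnpa2b1 libraries, against 10.3, 7.49 and 8.82 CPM in NC libraries, or 85, 108 and 102 counts in si-hnrnpa2b1 libraries, against 146, 99 and 131 counts in NC libraries. In CPM, though not in raw counts, all si-hnrnpa2b1 values of Ago3 lay below all NC values, and the difference missed the threshold (log2 -0.42 ± 0.16, edgeR adjusted p = 0.15; 95% interval -0.76 to -0.09; unadjusted p = 0.017). Ago4, the least abundant of the 34 genes by FPKM, had 13, 15 and 9 counts in si-hnrnpa2b1 libraries, against 19, 24 and 17 counts in NC libraries. Its groups did not overlap either, and it also missed the threshold (log2 -0.77 ± 0.35, edgeR adjusted p = 0.25; 95% interval -1.53 to -0.02; unadjusted p = 0.045). The sum of the Argonaute genes was 24.8 ± 2.21 FPKM in si-hnrnpa2b1 and 28.3 ± 0.676 FPKM in NC libraries. Ago2 held most of it, 55.2% ± 2.16 in si-hnrnpa2b1 and 53.9% ± 3.66 in NC libraries. Ago1 held 35.4% ± 1.90 in si-hnrnpa2b1 and 34.8% ± 3.82 in NC libraries, and Ago3 8.47% ± 0.472 in si-hnrnpa2b1 and 10.00% ± 1.496 in NC libraries. Only the share of Ago4 did not overlap within this family, at 0.894% ± 0.213 in si-hnrnpa2b1 and 1.36% ± 0.347 in NC libraries.

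**Figure D3:**
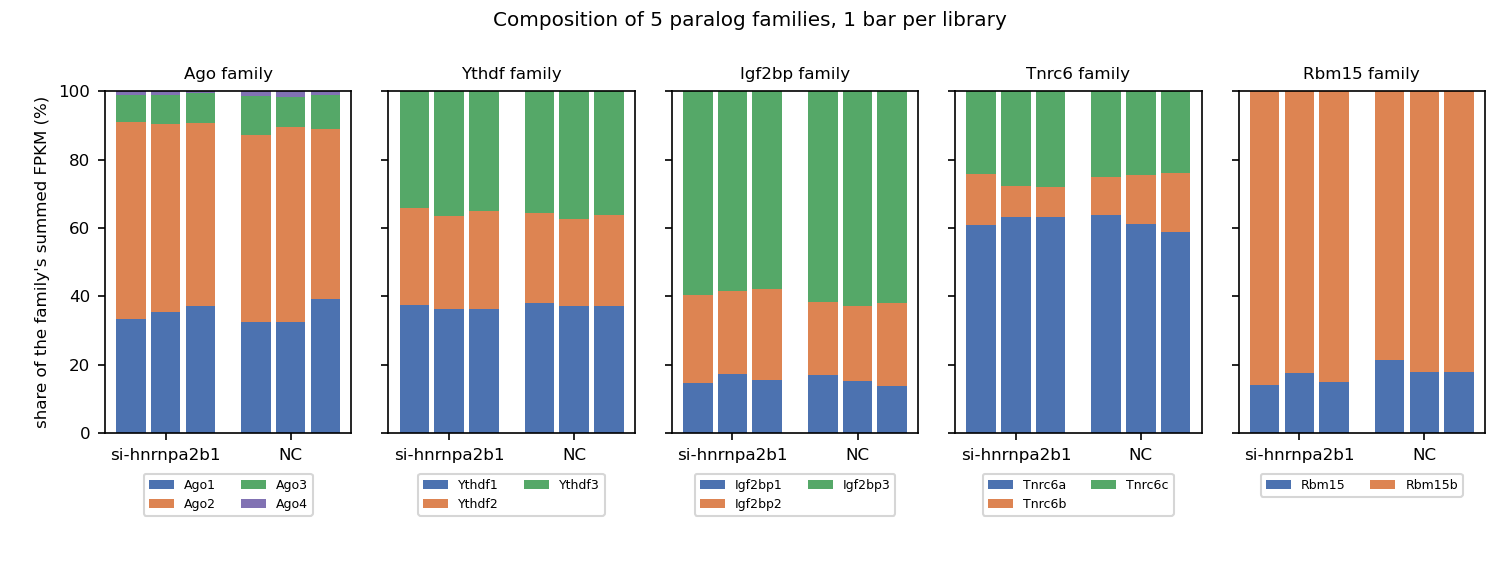
Share of each paralog in the summed FPKM of its family, in percent, 1 bar per library, with the si-hnrnpa2b1 libraries left of the NC libraries in each panel. Ago2, Igf2bp3, Tnrc6a and Rbm15b hold more than 50% of their families in nearly every library, and the Ythdf family is split more evenly.

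The TNRC6 proteins link Argonaute to the deadenylases, and 0 of their 3 genes passed. Tnrc6a had 253, 264 and 259.6 CPM in si-hnrnpa2b1 libraries, against 269, 284 and 272 CPM in NC libraries. Its groups did not overlap (log2 -0.09 ± 0.04, edgeR adjusted p = 0.30). Tnrc6c had 66.4, 75.8 and 75.9 CPM in si-hnrnpa2b1 libraries, against 70.1, 74.2 and 72.3 CPM in NC libraries, with overlap (log2 0.01 ± 0.07, edgeR adjusted p = 0.96).

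Tnrc6b (chromosome 7, 121930615 to 122147934 of Rnor_6.0) had 128, 78.1 and 74.5 CPM in si-hnrnpa2b1 libraries, against 97.2, 138 and 165 CPM in NC libraries. The values were widely spread in both groups: si-hnrnpa2b1 replicate 1 lay far above its group and inside the NC range. The log2 fold change was -0.52 ± 0.18 (edgeR adjusted p = 0.12; DESeq2 adjusted p = 0.54), with a 95% interval of -0.89 to -0.14. Tnrc6b passed without si-hnrnpa2b1 replicate 1 (log2 -0.81, edgeR adjusted p = 0.0078) and without NC replicate 1 (log2 -0.70, edgeR adjusted p = 0.026). The fold change was smallest without NC replicate 3 (log2 -0.33, edgeR adjusted p = 0.35). Over all alternatives its adjusted p lay between 0.0078 and 0.54. Its model overlaps the pseudogene Rpl26-ps1, which held 487 counts against 9826. Within the family, Tnrc6b held 10.9% ± 3.43 of the summed FPKM in si-hnrnpa2b1 and 14.3% ± 3.09 in NC libraries, and Tnrc6a held 62.4% ± 1.41 in si-hnrnpa2b1 and 61.3% ± 2.38 in NC libraries. Tnrc6c held 26.7% ± 2.04 in si-hnrnpa2b1 and 24.5% ± 0.717 in NC libraries. By share of counts the order of these paralogs turned: Tnrc6b held 21.8% in si-hnrnpa2b1 and 27.5% in NC libraries, and Tnrc6c 17.2% in si-hnrnpa2b1 and 15.1% in NC libraries. The sum of the family was 46.9 ± 0.444 FPKM in si-hnrnpa2b1 and 51.0 ± 2.35 FPKM in NC libraries. Reads shared between paralogs were not measured, and how any such reads were treated is unknown, which makes the levels within these families uncertain.

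**Figure D4:**
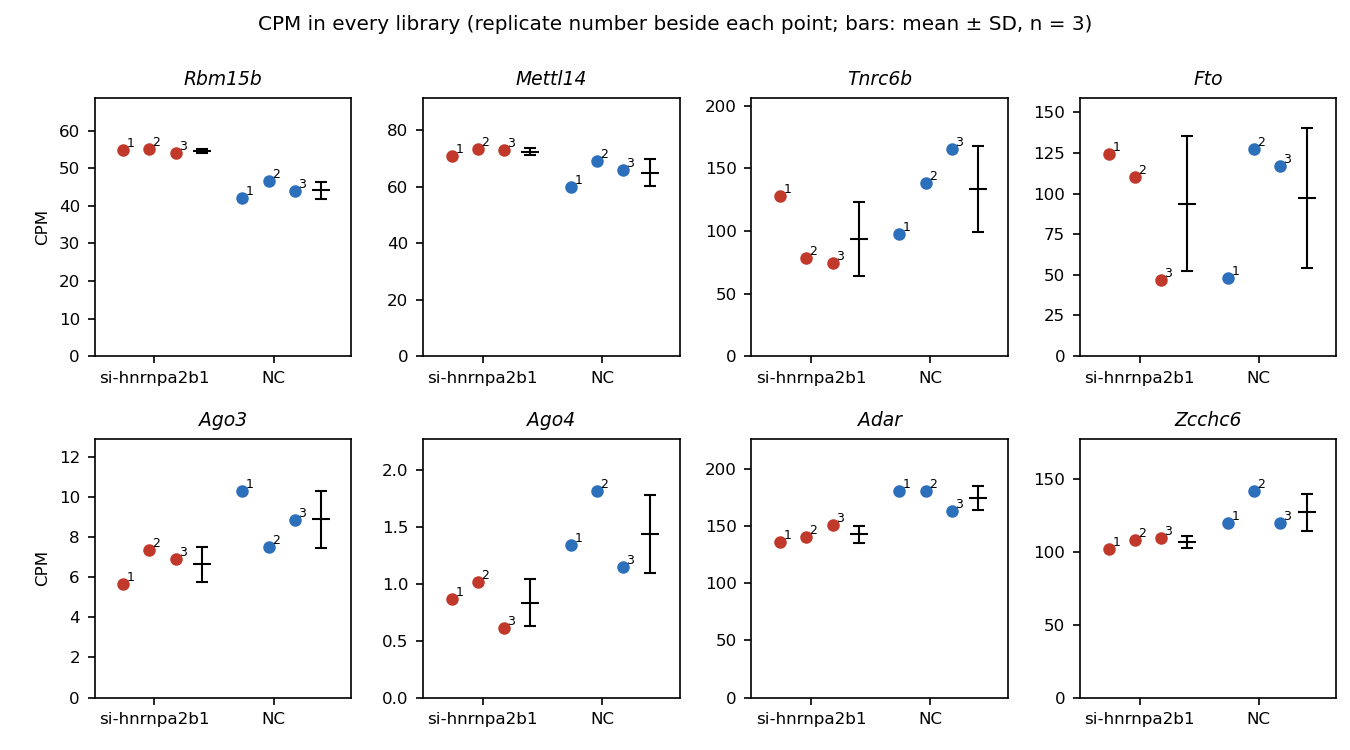
CPM in every library for 6 of the 34 genes (Rbm15b, Mettl14, Tnrc6b, Fto, Ago3 and Ago4) and for Adar and Zcchc6, with replicate numbers, and bars for mean ± SD (n = 3). Rbm15b, Mettl14, Ago3, Ago4, Adar and Zcchc6 show no overlap between groups, whereas the groups overlap in Fto and Tnrc6b.

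Levels of the 34 genes, compared per length, spanned a wide range in both groups. Ddx5 stood far above the rest. Next came Wtap, with 39.7 ± 1.26 FPKM in si-hnrnpa2b1 and 42.2 ± 1.08 FPKM in NC libraries, Ythdf1, with 41.6 ± 1.21 FPKM in si-hnrnpa2b1 and 42.2 ± 1.14 FPKM in NC libraries, and Ythdf3, with 39.6 ± 0.793 FPKM in si-hnrnpa2b1 and 40.9 ± 0.956 FPKM in NC libraries; these 3 lay within about 1 to 2 SD of one another, and Ythdf1 stood ahead of Wtap in si-hnrnpa2b1 but behind it in NC libraries. Ythdc1 followed in both groups, with 37.6 ± 0.693 FPKM in si-hnrnpa2b1 and 38.1 ± 1.21 FPKM in NC libraries. The middle of the order held, among others, Drosha, Mettl14, Mettl3 and Dicer1. Drosha had 19.8 ± 0.723 FPKM in si-hnrnpa2b1 and 19.3 ± 1.49 FPKM in NC libraries. Mettl14 had 17.6 ± 0.422 FPKM in si-hnrnpa2b1 and 15.9 ± 1.03 FPKM in NC libraries. Mettl3 had 14.9 ± 1.80 FPKM in si-hnrnpa2b1 and 13.2 ± 0.770 FPKM in NC libraries. Dicer1 had 13.6 ± 0.285 FPKM in si-hnrnpa2b1 and 14.1 ± 0.383 FPKM in NC libraries. The 5 lowest genes kept the same order in both groups. From low to high they were Ago4, with 0.222 ± 0.0548 FPKM in si-hnrnpa2b1 and 0.383 ± 0.0879 FPKM in NC libraries, Lin28b, with 1.24 ± 0.520 FPKM in si-hnrnpa2b1 and 1.47 ± 0.734 FPKM in NC libraries, Ago3, with 2.11 ± 0.293 FPKM in si-hnrnpa2b1 and 2.83 ± 0.475 FPKM in NC libraries, Ythdc2, with 3.63 ± 0.495 FPKM in si-hnrnpa2b1 and 3.76 ± 0.480 FPKM in NC libraries, and Rbm15, with 3.796 ± 0.591 FPKM in si-hnrnpa2b1 and 3.90 ± 0.361 FPKM in NC libraries. Ythdc2 and Rbm15 lay within their SDs of each other.

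Other genes of the same pathways were read from lists that do not include the 34. Of 21 tested genes of m6A and RNA methylation, such as further readers and the enzymes of methionine metabolism, 0 rose, 0 fell and 21 did not pass by edgeR, and 5 had an unadjusted p below 0.05. Of all tested genes, 18.3% had such an unadjusted p by edgeR and 5.30% passed the threshold. The median of the 21 genes was 0.04. DESeq2 called 1 of them, G3bp1, a stress granule protein (log2 0.14 ± 0.04, edgeR adjusted p = 0.064). The next smallest adjusted p were those of the RNA-binding proteins Fxr2 (log2 0.15 ± 0.05, edgeR adjusted p = 0.094) and Elavl1 (log2 0.18 ± 0.06, edgeR adjusted p = 0.098).

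Of all tested genes, 2.36% rose and 2.94% fell. Among 22 tested genes of microRNA regulation, of 27 in the table, 1 rose, 2 fell and 19 did not pass, with a median of 0.01. The gene that rose was Hnrnpa1, a paralog of the targeted gene that also binds primary microRNAs in human cells, with 653, 628 and 607 CPM in si-hnrnpa2b1 libraries, against 479.8, 471 and 470.5 CPM in NC libraries (log2 0.41 ± 0.04, edgeR adjusted p = 3.7e-05). Adar, which edits adenosine to inosine in double-stranded RNA and is an interferon-induced gene, had 136, 141 and 151 CPM in si-hnrnpa2b1 libraries, against 181, 180.2 and 163 CPM in NC libraries. Adar fell, with no overlap between groups (log2 -0.29 ± 0.06, edgeR adjusted p = 0.0054). Its call was lost by limma on log2(FPKM + 1) without a filter (adjusted p = 0.095), with adjusted p of 3.0e-04 to 0.095 over all alternatives.

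Zcchc6, also called Tut7, adds uridine to precursor microRNAs and to messenger RNAs. It had 102, 108 and 110.0 CPM in si-hnrnpa2b1 libraries, against 119.7, 142 and 120.0 CPM in NC libraries, and it fell (log2 -0.25 ± 0.07, edgeR adjusted p = 0.036). The Zcchc6 call was lost by limma on FPKM under each of 3 settings (adjusted p = 0.13, 0.13 and 0.21). It was also lost without si-hnrnpa2b1 replicate 1, 2 or 3 or NC replicate 2 (edgeR adjusted p = 0.15, 0.11, 0.081 and 0.10), and without both libraries low for Fto (0.089), with adjusted p of 0.019 to 0.21 over all alternatives. Of 29 tested genes of deadenylation and decapping, which act downstream of TNRC6, 0 rose, 0 fell and 29 did not pass by edgeR. Their median was -0.02, and 5 had an unadjusted p below 0.05, against 18.3% of all tested genes by edgeR. DESeq2 called 1, the poly(A)-binding protein Pabpc1 (log2 0.17 ± 0.06, edgeR adjusted p = 0.11; DESeq2 adjusted p = 0.043). Without NC replicate 2, Pabpc1 and the deadenylase subunit Cnot6 passed by edgeR.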

How the data were processed

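RNA of 3 si-hnrnpa2b1 and 3 NC libraries of BRL-3A cells was sequenced. HISAT2 2.0.4, StringTie 1.3.0, edgeR and the rat build Rnor_6.0 are named, with no role or order, per the submitters' processing notes. The authors deposited raw counts, 1 whole number per gene and library. The FPKM values deposited by the authors equal count divided by column total and by 1 length per gene. That length was worked out from the deposited values themselves. For well-counted genes it was the same across libraries to within 0.0017%. It was not compared with an annotated gene length. Annotation release, counting program and strand setting were not given in the sources used here. Genes that overlap or are near-identical are therefore uncertain.

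Members were taken by gene symbol; where a symbol has several rows, the row with the highest summed count is used. The members and lists were chosen with earlier results of these data known. Every member is named, and of each other list the genes past the threshold and up to 4 with the smallest adjusted p could be named. The test was that of edgeR 4.0.16 under R 4.3.3, with filterByExpr (minimum count 10, minimum total 15), scaling by the trimmed mean of M-values (TMM; factors 0.989 to 1.01), and a two-sided quasi-likelihood fit of all 6 libraries with no covariate. P-values were adjusted after Benjamini and Hochberg over 12261 genes, with a threshold of 0.05. The scripts were tested on simulated data. Replicates differed by more than sampling noise (chi-square per degree of freedom 2.91 to 6.00). Confidence intervals are at 95%, unadjusted. Promoter and microRNA sequences come from RefSeq tables (build GRCr8). Alternatives were DESeq2 1.42.0, other scalings and filters, limma 3.58.1 on log2(FPKM + 1) and log2(FPKM + 0.1), a replicate block, and leaving out libraries.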

Additional observations from a re-analysis of the deposited data

How the results depend on the processing

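Each gene was refitted under up to 17 alternatives. Of 576 values for the members, 33 were opposite in sign to those reported, spread over 13 genes, and 16 passed the threshold: 14 for Rbm15b and 2 for Tnrc6b. The number of genes changed among all tested was 308 by limma on log2(FPKM + 1), 293 on log2(FPKM + 0.1), 119 on log2(FPKM + 1) without a filter, and 379 to 592 with 1 library left out, the lowest 3 being 390, 380 and 379 without si-hnrnpa2b1 replicate 1, 2 and 3. The number of members past the threshold was 0 by limma without a filter and 1 to 2 with 1 library left out. For the other m6A genes DESeq2 called 1. For the other microRNA genes limma without a filter called 1, and 2 to 3 passed with 1 library left out. For deadenylation and decapping DESeq2 called 1, and 0 to 2 passed with 1 library left out. Without both libraries low for Fto, chosen after the data were seen, 211 genes and 0 members passed; Rbm15b was at 0.28 (edgeR adjusted p = 0.14). There the sign turned for Rbm15 (0.084), Ythdf1 (0.0061), Ythdc1 (0.015), Ythdc2 (0.0028), Igf2bp1 (0.053), Ddx17 (-0.0018) and Tnrc6c (-0.043). Leaving out 1 library turned the sign of small differences, with ranges of -0.022 to 0.038 for Alkbh5, -0.037 to 0.036 for Dgcr8, -0.020 to 0.10 for Drosha, -0.38 to 0.27 for Fto, -0.10 to 0.046 for Igf2bp1, -0.55 to 0.20 for Lin28b, -0.064 to 0.0016 for Prkra, -0.16 to 0.041 for Rbm15, -0.022 to 0.071 for Tnrc6c, -0.044 to 0.00055 for Ythdc1, -0.16 to 0.062 for Ythdc2 and -0.049 to 0.0037 for Ythdf1. Of the 22 members whose sign did not turn there, 14 moved by over 1.5 times, among them Tnrc6b (-0.81 to -0.33), Ago1 (-0.21 to -0.052), Zc3h13 (-0.16 to -0.016), Igf2bp3 (-0.18 to -0.081), Mettl3 (0.11 to 0.27) and Mettl16 (0.099 to 0.26). Of 30 family shares, 21 moved by more than 1 SD when taken from counts in place of FPKM, since genes differ in length. The cause of the other shifts was not tested.

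With the replicate number as a replicate block, 481 genes and 1 member passed; Rbm15b had an edgeR adjusted p of 0.027. For each gene the log CPM of a library was taken as its deviation from the group mean. Between same-numbered si-hnrnpa2b1 and NC libraries, these deviations correlated at 0.0571, -0.0039 and 0.0589, none over 0.1. The numbers were therefore not taken to pair the samples.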

Other observations

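Fto and Tnrc6b were among the genes with the widest spread inside the groups. Of 6908 genes with a mean of at least 20 CPM, Fto ranked 10 and Tnrc6b 25 by the SD within groups. Only 21 of these genes (0.304%) differed by at least 2-fold between libraries inside either group. Fto was 1 of the 21, with a highest value 2.68 times the lowest in the more variable group, and the other members among the 6908 were not. The low Fto libraries were si-hnrnpa2b1 replicate 3 and NC replicate 1, whereas the low Tnrc6b libraries were si-hnrnpa2b1 replicates 2 and 3 and NC replicate 1. The cause of either pattern was not tested.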
